A study of Mus musculus with 5 samples.

Results

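The 80 mouse genes described here encode the proteins of the cytosolic ribosome. They were taken from the annotation of the mouse genome mm10 by symbol: every protein-coding gene named Rpl or Rps with a number and an optional letter, together with Rplp0, Rplp1, Rplp2 and Rpsa. Genes of the mitochondrial ribosome (Mrpl, Mrps), the S6 kinases (Rps6k) and pseudogenes were left out. Of the 80 genes, 76 had at least 1 peak of RNA polymerase II (Pol II) whose midpoint lay in the gene body or within 3 kb upstream, among 13131 genes with such a peak. The symbols used no measured value. Rps3a1, a ribosomal protein gene whose symbol ends in a digit, fell outside the rule and is given with the related genes at the end.

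CUT&Tag served to map Pol II, a method in which an antibody on chromatin directs a transposase to the DNA beside the protein, so that sequenced fragments pile up where Pol II sits. Regulatory T (Treg) cells were sorted as CD3+CD4+ cells carrying the Foxp3-driven YFP reporter, from spleens of C57BL/6 mice aged 8 weeks. The study used mice of both sexes unless it noted otherwise. Both genotypes carried Foxp3Cre-YFP, which expresses Cre in Foxp3+ cells, and both were injected on 3 consecutive days with IL-2c, which expands Treg cells and was made by mixing 1 μg of the cytokine with 5 μg of an antibody against it, and were killed 48 h later. Ctrl mice had 1 floxed Setd2 allele (Setd2 f/+) and thus shared Cre and the loss of an allele with KO mice, in which both alleles were floxed (Setd2 f/f). Setd2 lays down H3K36me3, the trimethyl mark of histone H3 that follows elongating Pol II. There were 2 Ctrl and 2 KO libraries of 80000 nuclei each.

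According to the methods of the study, cells of 2 mice were pooled and the nuclei of each library counted as a biological replicate. The sources used here do not say whether each library had its own mice, so p-values measure only the spread between these libraries, which may be technical if they share mice. Total counts over all peaks ranged from 4489646 in KO 2 to 13351007 in KO 1, and the library numbered 1 was the deeper in each group. Pol II over Setd2 itself, which has 9 peaks, did not separate the labels (log2 fold change -0.02 ± 0.19 SE), and a floxed exon need not change Pol II over the gene, so that value checks nothing. All 8 markers of Treg cells and T cells had peaks, with summed normalized counts of 28200 to 33809 per library. Of the markers of other cells, Ms4a1, Pax5, Ebf1, Cd8a, Cd8b1, Ncr1, Klrb1c, Lyz2, Itgam, Csf1r, Mpeg1 and S100a8 had no peak. Cd79a and Cd79b summed to 88.5 to 138.5 counts, and Cd68, a macrophage marker, had 1 peak. That peak is shared with another coding gene and was lower in KO, with 1233 and 1311 in Ctrl against 1097 and 950.5 in KO (-0.31 ± 0.15, adjusted p 1.00, DESeq2), and its part in the results was not tested. Of the erythroid markers, Klf1 and Epor had peaks, with sums of 225 to 253, and Alas2 had none.

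Each ribosome joins a large and a small subunit, and nearly every ribosomal protein is present in a single copy, so cells need these genes in balance. Ribosomal protein genes are short, are transcribed at high rates in dividing and activated lymphocytes, and many of their transcripts start at a C followed by a run of pyrimidines, the 5′ TOP motif, through which mTOR controls their translation. Several of their introns also hold small nucleolar RNAs (snoRNAs) that guide the modification of ribosomal RNA.

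The promoters of the members that lay at both ends of the comparison are shown because they carry the start sites over which most of the Pol II was counted. RefSeq holds a promoter window for 58 of the 76 genes on build GRCm38.p6, from 250 bases before to 50 bases after the start. The genes whose windows were not matched include Rpl17, Rpl21, Rpl23a, Rpl29, Rpl3, Rpl30, Rpl32, Rpl7, Rpl8, Rps14, Rps20, Rps27a and Rps29. Each line below gives 75 bases before the start and 20 bases from it, 5′ to 3′ on the gene's strand. Capitals mark a pyrimidine tract, here a C within 5 bases of the start followed by at least 4 further bases that are C or T. Rpl7a, Rpl28 and Rpsa had the lowest p-values among the genes with a window, and Rpl31, Rpl10 and Rpl36a the most negative test values.
Rpl7a (chr2:26910732-26910826, plus strand): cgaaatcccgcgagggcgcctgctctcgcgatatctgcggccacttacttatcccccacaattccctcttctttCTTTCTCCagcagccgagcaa
Rpl28 (chr7:4792890-4792984, plus strand): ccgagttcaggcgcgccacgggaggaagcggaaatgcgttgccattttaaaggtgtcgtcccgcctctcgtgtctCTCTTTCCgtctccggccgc
Rpsa (chr9:120127691-120127785, plus strand): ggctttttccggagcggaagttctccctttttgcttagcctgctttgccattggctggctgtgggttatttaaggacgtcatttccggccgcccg
Rpl31 (chr1:39367776-39367870, plus strand): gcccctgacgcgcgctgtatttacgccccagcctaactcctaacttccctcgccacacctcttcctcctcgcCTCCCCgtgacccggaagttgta
Rpl10 (chrX:74270741-74270835, plus strand): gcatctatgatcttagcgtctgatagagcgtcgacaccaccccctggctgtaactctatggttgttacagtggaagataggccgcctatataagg
Rpl36a (chrX:134585579-134585673, plus strand): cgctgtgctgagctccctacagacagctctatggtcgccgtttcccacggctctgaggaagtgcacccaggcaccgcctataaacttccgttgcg
Rpl13a was a reference gene for expression assays in the study, Rps6 is the classic target of S6 kinase, and Rps27 and Rps27l are paralogs with different regulation.
Rpl13a (chr7:45128726-45128820, minus strand): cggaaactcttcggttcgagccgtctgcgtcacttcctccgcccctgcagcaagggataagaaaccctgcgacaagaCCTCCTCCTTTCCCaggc
Rps6 (chr4:86857348-86857442, minus strand): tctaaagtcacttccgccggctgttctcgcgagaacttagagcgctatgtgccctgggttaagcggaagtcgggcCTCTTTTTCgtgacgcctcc
Rps27 (chr3:90213629-90213723, minus strand): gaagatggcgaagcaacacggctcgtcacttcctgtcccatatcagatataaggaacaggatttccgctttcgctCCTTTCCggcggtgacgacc
Rps27l (chr9:66946011-66946105, plus strand): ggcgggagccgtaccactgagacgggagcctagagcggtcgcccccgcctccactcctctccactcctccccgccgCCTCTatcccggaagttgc

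A pyrimidine tract by the definition above was found in 27 of the 58 member promoters (46.6%). The shares were 18.9% of 16522 promoters of coding genes and 23.2% of 69 promoters of mitochondrial ribosomal protein genes. Runs of C and T farther from the RefSeq start, as in Rps12 and Rpl4, were not counted. Members scored without a tract can therefore hold one nearby. Whether the RefSeq start is the one used in these cells was not tested. The letters CCGGAAG, the core bound by ETS factors such as GABPA, were found on either strand in 39.7% of member windows, 12.3% of all windows and 34.8% of the mitochondrial ones. ATGGCG, the core of the YY1 site, was found in 25.9%, 11.5% and 27.5% in the same order. GGGCGG, the Sp1 core, was found in 58.6% of member windows and 48.2% of all. CACGTG, the E-box bound by Myc, was in 8.62% against 8.09%, and TATAAA in 8.62% against 12.9%. These are matches of letters in a window of 300 bases, in which motifs can overlap each other and the tract, and they say nothing of the factors. In the comparison of KO with Ctrl below, members scored with a tract had a median log2 fold change of 0.10 (27 genes). Those scored without one had 0.03 (31 genes). This split rests on the same definition, and the difference was not tested.

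Pol II peaks filled much of these genes. The peaks are the merged set of all libraries, so the shares that follow belong to neither genotype alone. The members had a median annotated length of 3399.5 bp, against 22394 bp for all coding genes with a peak, and peaks covered a median of 57.4% of the gene, against 6.65%. The annotated start lay in a peak in 72 of the 76 genes (94.7%), against 67.4% of coding genes, and the 3′ end lay in a peak in 37 (48.7%), against 11.3%. In 8 members a single peak held the whole gene, from before the start to past the end, among them Rpl7a, Rpl12, Rpl41, Rps12, Rps21, Rps27 and Rpsa. That share was 10.5%, against 1.35% of coding genes. Shorter genes are covered by a peak of given width more easily, and these shares were not adjusted for length.

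Density, the share of the library (CPM) per kb of peak, had a median of 21.8 over the members in Ctrl, against 18.6 for all coding genes, which put the median member at the 67.2 percentile of all genes with a peak. Density per length allows levels to be set side by side between genes, although the peaks were called on these same libraries and merged peaks differ in how much flank they hold.

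**Figure D1:**
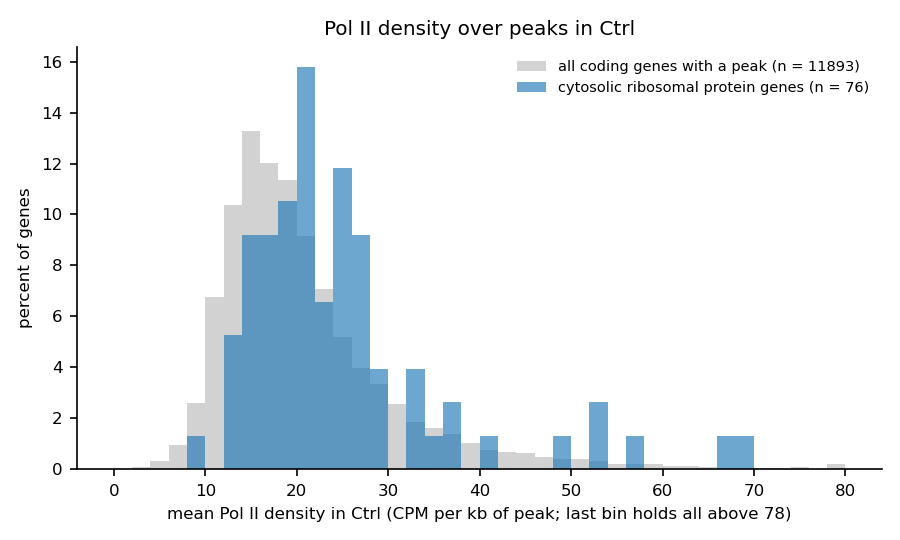
Distribution of mean Pol II density in the 2 Ctrl libraries (CPM per kb of peak), as percent of genes in each bin, for all coding genes with a peak and for the 76 cytosolic ribosomal protein genes. The ribosomal protein genes range from 9.97 to 69.9 with a median of 21.8, beside a median of 18.6 for all coding genes.

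The highest density was over Rpl21, which encodes eL21 of the large subunit, at 67.1 and 72.7 in Ctrl against 53.8 and 67.4 in KO. Rpl30, a large subunit protein that makes contacts with the small subunit, followed at 70.0 and 64.3 in Ctrl against 61.6 and 55.5 in KO. Rps27a, which is made as a fusion with ubiquitin, stood at 55.3 and 59.5 in Ctrl against 48.5 and 56.1 in KO. In the order of the Ctrl mean density, neighbours such as Rpl21 at 69.9 and Rpl30 at 67.2 did not differ beyond the spread between the Ctrl libraries. Rps25, which several viral internal ribosome entry sites require, had a mean density of 53.1, Rps23, a protein of the decoding centre, 52.3 and Rpl41, the smallest ribosomal protein, 49.4. In Ctrl the range of Rps23 overlapped those of Rps25 and Rpl41, which did not overlap each other. The peak of Rps25 is shared with Trappc4, that of Rps27a with Clhc1 and that of Rpl41 with Zc3h10, so their reads cannot be credited to 1 gene.

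At the other end, Rpl3l, a paralog of Rpl3 used in heart and skeletal muscle, had the lowest density, at 9.60 and 10.3 in Ctrl against 10.3 and 14.1 in KO. Rps4x, an X-linked gene of the small subunit, had a single peak of 490 bp inside the gene and none over its start, with a density of 12.1 and 12.3 in Ctrl against 13.9 and 10.5 in KO. Rpl6, Rpl23a, Rps18 and Rpl14 came next, with Ctrl means of 12.9, 13.1, 13.1 and 14.2. The Ctrl libraries differed widely for Rpl23a, at 17.7 and 8.60, so its place in this order is uncertain.

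KO was compared with Ctrl to ask whether loss of Setd2 shifted Pol II over the genes of the ribosome. No member passed the adjusted threshold of 0.05 in the DESeq2 test on counts summed per gene (the background was 0.099% of 13131 genes), and the lowest adjusted p over the members was 1.00. At an unadjusted p below 0.05, 4 members were higher in KO, among them Rpl7a, Rpl28 and Rpsa, and 0 were lower, where 1.43% of all genes were higher and 1.43% lower. By edgeR 6 members were higher, among them Rpl7a, Rpl28, Rpsa and Rpl14, and 0 lower, beside 2.47% and 2.35% of all genes, and 0 members passed the adjusted threshold. Fewer cells of a type and less Pol II per cell cannot be told apart in these bulk libraries.

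The members as a list lay slightly to the KO side. Their log2 fold changes (KO over Ctrl) ran from -0.24 for Rpl31 to 0.51 for Rpl14, with a median of 0.07, against -0.0044 for all genes, and 51 of 76 (67.1%) lay above 0, against 49.2% of all genes. Both KO libraries were above both Ctrl libraries in 22 members, beside 17.5% of all genes, and below both in 8, beside 17% of all genes. The standard error of a single member was 0.14 to 0.48, larger than most of the fold changes.

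**Figure D2:**
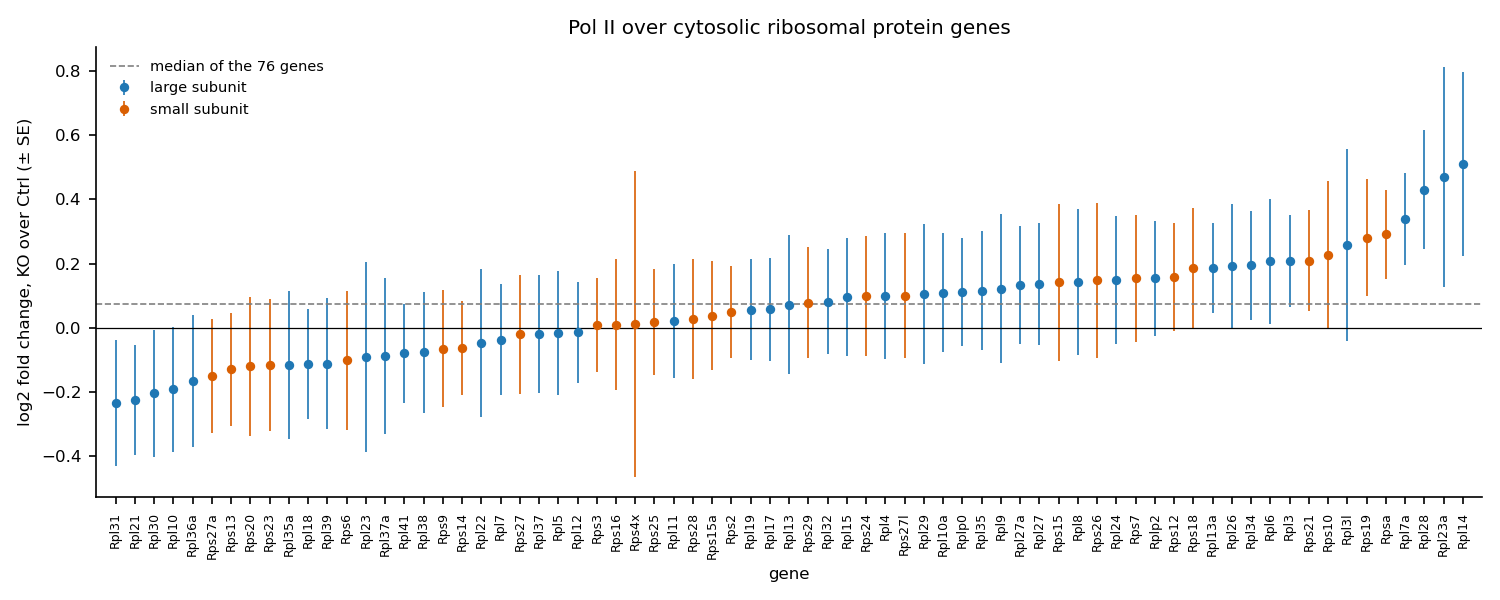
Log2 fold change of Pol II, KO over Ctrl, for 71 of the 76 cytosolic ribosomal protein genes, ordered by value (points, with ± 1 SE from DESeq2 as bars; 2 libraries per group), coloured by subunit, with the median of the 76 genes as a dashed line. Values run from -0.24 for Rpl31 to 0.51 for Rpl14 around a median of 0.07, and the bars of most genes cross 0.

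The spread between replicates was as large as the shift. Over the members, the median log2 difference between the 2 Ctrl libraries was 0.08, with Ctrl 1 above Ctrl 2 in 54 of 76 genes, and between the 2 KO libraries 0.02. KO 2 exceeded Ctrl 2 by a median of 0.11, KO 1 exceeded Ctrl 1 by 0.05, and KO 2 and Ctrl 1 differed by -0.00095. Over all genes each of these medians was within 0.01 of 0, where the normalization, computed over the same genes, places them. A change of Pol II shared by all genes would therefore not be seen. Without Ctrl 2 the members' median less that of all genes fell to 0.01, and without Ctrl 1 it was 0.13, so a single Ctrl library set its size.

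Member peaks held 0.490% and 0.471% of all counts in Ctrl 1 and Ctrl 2, and 0.509% and 0.512% in KO 1 and KO 2. The 171 peaks together spanned 212.8 kb. The 95% Wilson intervals of these shares were 0.486% to 0.494% and 0.466% to 0.477% in Ctrl and 0.505% to 0.512% and 0.506% to 0.519% in KO. They cover counting error only, not the spread between libraries. Both KO shares were above both Ctrl shares (0.511% ± 0.0027 against 0.481% ± 0.0134, SD, n = 2 each). The exact permutation test gave p = 0.333, two-sided, the smallest p that 2 against 2 libraries allow. It therefore cannot decide whether the groups differ.

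Among large subunit genes, Rpl7a and Rpl28 had the lowest p-values. Rpl7a, which encodes eL8 and hosts 3 snoRNAs (chr2:26910764-26913318, plus strand), had normalized counts of 993 and 1089 in Ctrl against 1281 and 1354 in KO. Both KO libraries were above both Ctrl libraries, with a log2 fold change of 0.34 ± 0.14 (SE), adjusted p 1.00, DESeq2. Its single peak of 5114 bp covered the whole gene and is shared with Med22. Rpl28 (chr7:4792874-4795066, plus strand), a large subunit protein that budding yeast lacks, had 360.1 and 359 in Ctrl against 476 and 495 in KO. The Ctrl libraries lay together and below both KO libraries (0.43 ± 0.19, adjusted p 1.00, DESeq2).

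Rpl14 had the highest fold change of the members on few counts, and single libraries set its size. It stood at 168 and 117 in Ctrl against 182 and 232 in KO, where the groups did not overlap but the Ctrl libraries differed from each other by more than Ctrl 1 did from KO 1 (0.51 ± 0.29). It was 0.82 without Ctrl 1, 0.29 without Ctrl 2 and 0.34 without KO 2. Rpl3, another large subunit gene, had 1018 and 1048 in Ctrl against 1144 and 1245 in KO (0.21 ± 0.14). Rpl13a, a member of the complex that can silence inflammatory transcripts after leaving the ribosome, had 1117 and 1121 in Ctrl against 1302 and 1241 in KO (0.19 ± 0.14), again with no overlap, but was at -0.0017 when only peaks within 1 kb of its start were counted. Most of its count came from a peak of 4274 bp that is shared with another coding gene.

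The lowest test values belonged to Rpl21, Rpl31 and Rpl30. Rpl21 had 745 and 795 in Ctrl against 592 and 732 in KO, and KO 1 was the lowest (-0.23 ± 0.17). Rpl31 had 429 and 476 in Ctrl against 416 and 346 in KO (-0.24 ± 0.20), and Rpl30 had 431 and 389.8 in Ctrl against 376 and 334 in KO (-0.21 ± 0.20). Both KO libraries were below both Ctrl libraries in each of the 3 genes, which were named for their low test values. Of all 76 members 8 (10.5%) lay wholly below Ctrl, against 17% of all genes. Single libraries moved these values, for Rpl21 to -0.07 without KO 1 and -0.38 without KO 2, and for Rpl31 to -0.38 without KO 1 and -0.12 without KO 2. Rpl30 was at -0.13 without Ctrl 1 or without KO 2. Rpl21 has 15, Rpl31 24 and Rpl30 9 named pseudogene copies in the annotation. The authors kept uniquely mapped reads only, so reads that fit a copy equally well would be lost. How many were lost was not measured.

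Of the large subunit genes with known roles outside it, Rpl5, Rpl11, Rpl22 and Rpl38 lay near 0, unlike Rpl13a above. Rpl5 and Rpl11, which with 5S rRNA bind MDM2 and stabilise p53 when ribosome assembly fails, had log2 fold changes of -0.02 ± 0.20 and 0.02 ± 0.18. Rpl22, which is needed for αβ T cell development, had 291 and 313 in Ctrl against 249 and 341 in KO, so that its KO libraries lay on both sides of Ctrl (-0.05 ± 0.23). Rpl38, which directs the translation of Hox transcripts, was at -0.08 ± 0.19. The 45 large subunit genes together had a median of 0.09, with 14 wholly above (31.1%) and 6 wholly below Ctrl (13.3%). Over all genes these shares were 17.5% and 17%.

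The stalk, which recruits the elongation factors, is built from Rplp0, Rplp1 and Rplp2. Rplp0 had 593 and 542 in Ctrl against 616 and 611 in KO (0.11 ± 0.17), and Rplp2 had 463 and 448 in Ctrl against 489 and 528 in KO (0.15 ± 0.18). Both KO libraries were above both Ctrl libraries in both genes, by less than the standard error of the fit. Rplp1 had no peak by the midpoint rule, because the peak of 4397 bp that covers it (chr9:61913284-61914542, minus strand) has its midpoint 86 bp past the gene's end. That peak held 886 and 942 counts in Ctrl against 888 and 896 in KO (-0.03 ± 0.19), with both KO libraries inside the Ctrl range.

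Of the 31 small subunit genes, Rpsa was among those with an unadjusted p below 0.05. Rpsa (chr9:120127689-120132369, plus strand), also known as the laminin receptor and needed for the development of the spleen, had 1193 and 1112 in Ctrl against 1433 and 1388 in KO. Its peak of 7832 bp was the longest of the members and covered the whole gene (0.29 ± 0.14, adjusted p 1.00, DESeq2).

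Rps19, the gene most often mutated in Diamond-Blackfan anaemia, had 511 and 429 in Ctrl against 584 and 561 in KO (0.28 ± 0.18), with no overlap. Rps6, the small subunit protein phosphorylated downstream of mTOR, had 514 and 432 in Ctrl against 519 and 355 in KO. Its groups overlapped and its libraries numbered 1 were higher than those numbered 2 in each (-0.10 ± 0.22).

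Rps3, a repair nuclease and NF-κB partner as well as a ribosomal protein, had 999.5 and 1012 in Ctrl against 984 and 1042 in KO (0.01 ± 0.15). Rps27a had 538 and 569 in Ctrl against 468 and 533 in KO, with both KO libraries below both Ctrl libraries by a small margin (-0.15 ± 0.18). The small subunit genes together had a median of 0.04, with 8 wholly above (25.8%) and 2 wholly below Ctrl (6.45%). Over all genes these shares were 17.5% and 17%. No difference between the subunits was tested.

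**Figure D3:**
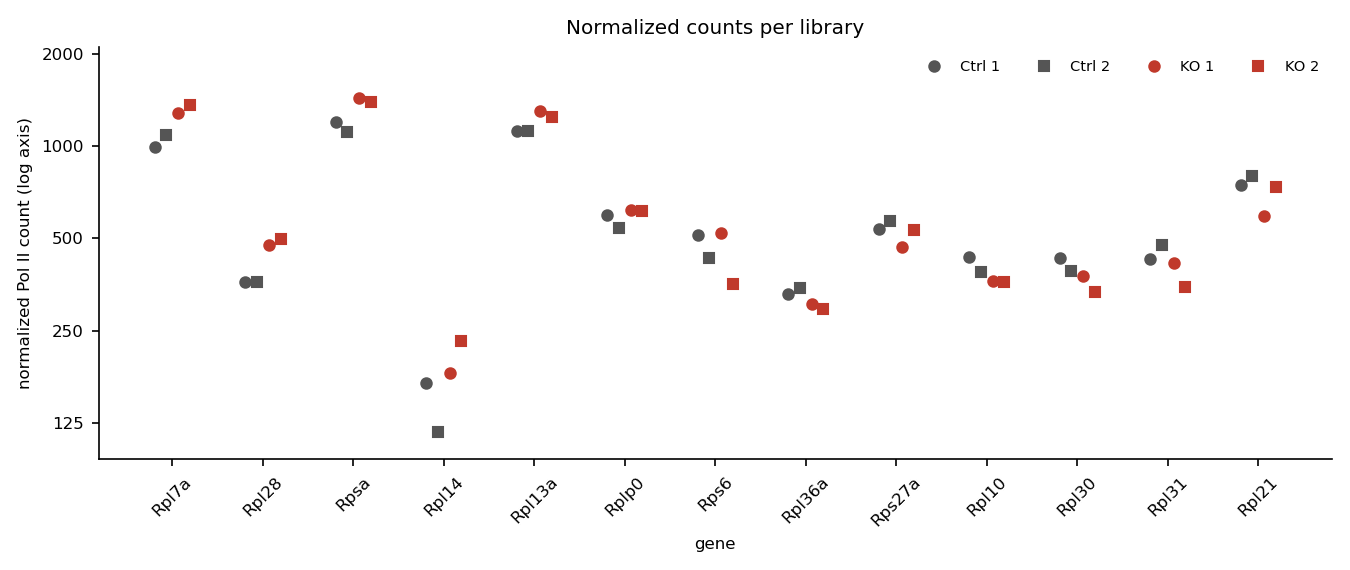
Normalized Pol II counts (log axis) of 13 ribosomal protein genes in each of the 4 libraries (circles, replicate 1; squares, replicate 2; grey, Ctrl; red, KO). Rpl7a, Rpl28 and Rpsa show both KO points above both Ctrl points, Rpl31, Rpl30, Rpl10 and Rpl21 show both below, and Rps6 overlaps.

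The 4 X-linked members with a peak had a median log2 fold change of -0.14. None lay wholly above Ctrl and 2 wholly below, against 17.5% and 17% of all genes. Rpl10, which completes the large subunit near the peptidyl transferase centre, had 434 and 388 in Ctrl against 361 and 360.1 in KO (-0.19 ± 0.19). Rpl36a had 329.9 and 345 in Ctrl against 305 and 294 in KO (-0.17 ± 0.21), and its peak is shared with Btk. Rpl39, a protein of the exit tunnel, had 341 and 401 in Ctrl against 341 and 343 in KO (-0.11 ± 0.20). Rps4x had only 47.0 and 47.3 in Ctrl against 53.7 and 39.8 in KO (0.01 ± 0.48). The study used mice of both sexes unless it noted otherwise, and the share of cells from each sex in a library is not given. These values and the sex mix therefore cannot be told apart.

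Tissue-restricted paralogs were at the bottom of the range or had no peak. Rpl10l, expressed in testis, and Rpl39l, also enriched there, had no peak touching the gene or its upstream 3 kb, beside the peaks of Rpl10 and Rpl39. Rpl3l had 122 and 129 counts in Ctrl against 129 and 175 in KO (0.26 ± 0.30), and 1 of its 2 peaks is shared with another coding gene. Rps27l, a p53-induced paralog, stood apart from these with a Ctrl mean density of 33.7, against 20.7 for Rps27, and gave 399 and 351 in Ctrl against 399.6 and 407 in KO (0.10 ± 0.20). Rps27 was at -0.02 ± 0.19. Rpl36 also had no peak by the midpoint rule, since the midpoint of the peak of 5602 bp that covers it (chr17:56613416-56614243, plus strand) lies 1654 bp past its end. That peak had a log2 fold change of -0.06 ± 0.20.

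Fold changes were higher away from the start. Peaks over the annotated start of a member had a median log2 fold change of 0.01 (37 of 72 above 0), while peaks inside the gene had 0.20 (52 of 69, 75.4%) and peaks in the upstream 3 kb 0.15 (23 of 31). For all coding genes the same medians were -0.05 over the start (39.5% of 6974 above 0), 0.01 inside (51.0%) and -0.01 upstream. Other coding genes shorter than 10 kb, a comparison chosen after seeing the data, had -0.05 over the start and 0.07 inside. Mitochondrial ribosomal protein genes had -0.10 and -0.03. No test was made of these medians, since peaks of a gene share its libraries.

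The inside peaks can be set against the start peaks in each library. The inside peaks held 0.323 and 0.330 counts per count over the start in Ctrl 1 and Ctrl 2, and 0.357 and 0.346 in KO 1 and KO 2, so both KO ratios exceeded both Ctrl ratios. Over all coding genes the ratio was 1.48 and 1.62 in Ctrl against 1.54 and 1.68 in KO, and over other coding genes shorter than 10 kb 0.416 and 0.470 in Ctrl against 0.458 and 0.500 in KO. In those larger sets the ratio was higher in replicate 2 than in replicate 1 of each group and the groups overlapped, but within each replicate number the KO ratio was above the Ctrl ratio there too. Over mitochondrial ribosomal protein genes it was 0.259 and 0.299 in Ctrl against 0.272 and 0.296 in KO, with KO 2 below Ctrl 2. Whether the change differed between the members and these sets was not tested. Leaving out single libraries kept the median of the members' inside peaks above that of all coding genes, by 0.11 to 0.24. Some of the inside peaks hold the start of another annotated coding transcript, as in Rpl28 and Rpl3, whose annotated gene start lay in no peak. The 58 inside peaks that hold no such start had a median of 0.24 (45 above 0, 77.6%), against 0.01 for 34433 such peaks of all coding genes, and the 11 that do hold one had 0.16 (7 above 0).

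Of single member peaks, 1 had an unadjusted p below 0.05 and was higher in KO, where 0.862% of all 56615 peaks were higher and 0.664% lower. It lay inside Rpl27a, a large subunit protein (chr7:109521255-109521631), and held 20.1 and 24.8 normalized counts in Ctrl against 46.9 and 47.7 in KO (1.09 ± 0.54, adjusted p 1.00, DESeq2). The peak over the Rpl27a start held 358 and 315 in Ctrl against 333 and 358 in KO (0.03 ± 0.23). A peak inside Rplp0 held 128 and 156 in Ctrl against 189 and 204 in KO (0.48 ± 0.29), and a peak inside Rps19 held 40.3 and 44.1 in Ctrl against 75.5 and 56.2 in KO (0.67 ± 0.45). Each of these inside peaks had both KO libraries above both Ctrl libraries, on low counts in Rpl27a and Rps19. The peak of Rpl27a was named for its p-value, and those of Rplp0 and Rps19 were chosen after their values were seen. The separation of their libraries therefore says nothing of inside peaks in general, and its share over all peaks was not counted.

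**Figure D4:**
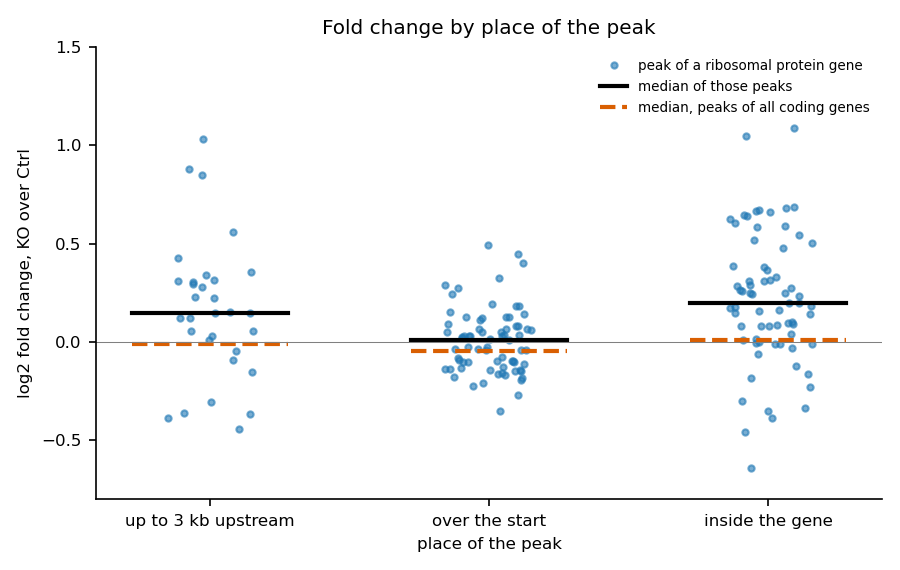
Log2 fold change, KO over Ctrl, of each peak of the cytosolic ribosomal protein genes (points), by its place: up to 3 kb upstream (31 peaks), over the annotated start (72) or inside the gene (69). Black lines are their medians (0.15, 0.01 and 0.20) and dashed lines the medians over peaks of all coding genes (-0.01, -0.05 and 0.01).

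Members with wide peaks had higher fold changes at gene level, by a limit of 3 kb that was chosen after seeing the data. The 17 members whose widest peak reached 3 kb had a median log2 fold change of 0.19, with 15 above 0, 10 wholly above Ctrl and 0 wholly below, while the 59 others had 0.03, with 12 wholly above and 8 wholly below. All coding genes with a peak that wide had -0.01, with 46.3% above 0, 20.4% wholly above and 19.7% wholly below Ctrl. Across the 76 members Spearman's rho of fold change with total peak length was 0.35, against 0.02 over 11893 coding genes, and with Ctrl density -0.54, against -0.30. The genes share libraries and the density shares its Ctrl counts with the fold change, so these are descriptions. The 29 members that host snoRNAs had a median of 0.06 and the 47 others 0.09. The 57 members with named pseudogene copies had a median of 0.08 and the 19 without 0.03.

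Related genes that the symbol rule left out were spread around 0. Rps3a1, the small subunit protein eS1, had 449.9 and 457 in Ctrl against 516 and 529.8 in KO (0.21 ± 0.18), and Fau, which encodes a ribosomal protein fused to a ubiquitin-like domain, was at 0.21 ± 0.19. Both had both KO libraries above both Ctrl libraries. Rpl22l1, the paralog of Rpl22, was lower in KO, with 399 and 322 in Ctrl against 286 and 239 in KO (-0.45 ± 0.22, adjusted p 1.00, DESeq2). Rpl7l1 and Rpl36al were at 0.12 and -0.04, and Rps27rt had no peak.

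Lists of the translation machinery were set beside the members. At an unadjusted p below 0.05 (DESeq2), 1.43% of all genes were higher in KO and 1.43% lower. The 20 other 5′ TOP genes, which include elongation factors such as Eef2, had a median of 0.03 and 0 genes at an unadjusted p below 0.05. The 49 genes named Eif1 to Eif6, most of them initiation factors, had a median of 0.01 and 0 such genes, with Eif2s3x lowest in p (-0.33 ± 0.19). The 35 ribosome biogenesis genes had -0.10, with 0 higher and 1 lower. That gene was Mrto4, a relative of Rplp0 that holds its place on the assembling large subunit, at 307 and 295 in Ctrl against 186 and 163 in KO (-0.78 ± 0.23, adjusted p 0.425, DESeq2). Both KO libraries were well below both Ctrl libraries.

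The 76 mitochondrial ribosomal protein genes with a peak, of 78 listed, lay to the opposite side of 0 from the cytosolic ones. Their median was -0.08, and 25 of 76 (32.9%) were above 0, against 49.2% of all genes. Wholly above Ctrl lay 3 (3.95%) and wholly below 17 (22.4%), against 17.5% and 17% of all genes. At an unadjusted p below 0.05, 0 were higher and 4 lower, against 1.43% and 1.43% of all genes. Mrps18c had 109 and 110.0 counts in Ctrl against 47.8 and 43.3 in KO (-1.25 ± 0.38), Mrps5 222 and 301 in Ctrl against 135 and 194 in KO (-0.69 ± 0.28), Mrpl47 282 and 354 in Ctrl against 209.6 and 234 in KO (-0.52 ± 0.23) and Mrps31 67.4 and 94.7 in Ctrl against 48.4 and 34.6 in KO (-0.92 ± 0.44). None passed the adjusted threshold. The difference between the cytosolic and the mitochondrial list was not tested.

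Of 16 regulators of ribosomal protein synthesis, 15 had a peak, with a median of -0.09. At an unadjusted p below 0.05, 1 was higher and 0 lower, against 1.43% and 1.43% of all genes. The higher gene was Rps6kb2, an S6 kinase, at 938 and 1005 in Ctrl against 1133 and 1288 in KO (0.31 ± 0.15, adjusted p 1.00, DESeq2). Max, the partner of Myc, was at 0.21 ± 0.15 and Tsc2, a brake on mTOR, at -0.62 ± 0.44, the latter on 54.9 to 117 counts per library.

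**Figure D5:**
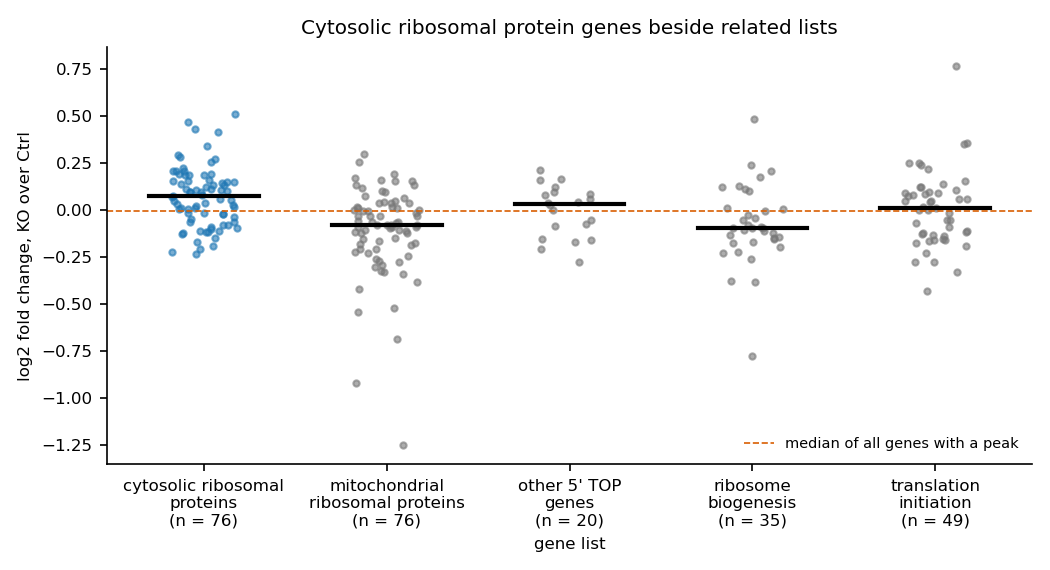
Log2 fold change of Pol II per gene, KO over Ctrl, for the cytosolic ribosomal protein genes and 4 related lists (points, genes; black lines, list medians; dashed line, median of all 13131 genes with a peak). The cytosolic ribosomal protein genes have a median of 0.07 and the mitochondrial ones of -0.08, and the single genes of every list spread over a wider range than these medians differ.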

How the data were processed

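Pol II CUT&Tag libraries of 2 Ctrl and 2 KO samples were used; the IgG library was not used here. According to the study's methods, reads were mapped to mm10 with Bowtie2, uniquely mapped reads were kept, duplicates were removed, peaks were called with MACS2 against IgG and merged with bedtools. The authors deposited raw read counts per merged peak, not normalized (56615 peaks; 0 value columns without a sample). Tool versions were not given in the sources used here.

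Peaks were assigned with GENCODE vM21 to every coding gene with the midpoint in its body or within 3 kb upstream of it, otherwise to non-coding genes (pseudogenes left out), which gave 47611 peaks with a gene, and counts were summed per gene. A peak shared by neighbours counts for each, and CUT&Tag reads carry no strand. KO was compared with Ctrl over all genes, and over all peaks, with DESeq2 1.42.0 under R 4.3.3 (Wald test; genotype only; median-of-ratios size factors; Benjamini-Hochberg adjustment), tested on simulated data. DESeq2 was the study's tool; edgeR 4.0.16 (quasi-likelihood, TMM) was an alternative. Normalized counts are counts divided by size factors (1.42, 0.718, 1.69 and 0.578 for Ctrl 1, Ctrl 2, KO 1 and KO 2). Promoter letters came from RefSeq windows on GRCm38.p6, the assembly of mm10.

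The members and lists were chosen with earlier results of these data known. Genes were named by rule: members with an unadjusted p below 0.05, the 6 highest and 6 lowest test values, the 6 highest and 6 lowest Ctrl densities, members of set roles, paralogs, members with no peak, and up to 3 genes of lowest p per list. Mrps31 was added because it completes a count of 4, and the single peaks of Rplp0 and Rps19 were chosen after their values were seen. Some genes that the rule names are not reported here.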

Additional observations from a re-analysis of the deposited data

How the results depend on the processing

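No member passed the adjusted threshold under edgeR, total-count scaling, TMM factors, a mean count of at least 10, peaks within 1 kb of the start, peaks of 1 coding gene or any overlap with the gene (chosen after seeing the data), nor when any single library was left out, which gave a range of 0 to 0. With the replicate block 1 member passed, Rpl7a (adjusted p = 0.0496, DESeq2), and 114 genes of all passed against 13, but DESeq2's filter on the mean count left 68 of the 76 members without an adjusted p in that fit. The numbers 1 and 2 occur in both groups, but nothing in the labels says that they pair the libraries, and their deviations from the group means correlated at 0.37 over 13131 genes. The 4 members higher at an unadjusted p below 0.05 became 1 with peaks within 1 kb of the start and 2 with peaks of 1 coding gene only (Rpl28 among them). The first of these fits held 67 members and could not test Rpl7a, Rpl28 or Rpsa, whose peak midpoints lie farther from the start. The second held 56 members, without Rpl7a, whose only peak is shared, while Rpsa was kept but no longer counted. The count of 4 also fell when any single library was left out. Log2 fold changes then ran from 0.28 to 0.41 for Rpl7a, 0.40 to 0.46 for Rpl28 and 0.24 to 0.35 for Rpsa. In these fits the lone library was assumed to vary like the others. The median of the members less that of all genes was 0.08 and ranged from 0.012 without Ctrl 2 to 0.13 without Ctrl 1. The difference in the share of counts was 0.0298 percentage points, 0.0498 when taken as a share of counts in promoter peaks, a smaller base (0.837% in KO against 0.787% in Ctrl), and 0.0203 to 0.0393 without single libraries. The 1 member peak at an unadjusted p below 0.05 became 6 by edgeR, 3 with total-count scaling, 4 with the replicate block and 0 to 2 without single libraries. The median of inside peaks less that of all coding genes was 0.19, 0.23 for inside peaks with no annotated transcript start, and 0.11 to 0.24 without single libraries, and that of start peaks was 0.06, with 0.014 to 0.095 without single libraries. Uncalled members changed sign: Rplp0 from 0.11 to -0.057, Rpl11 from 0.02 to -0.065 and Rpl13a from 0.19 to -0.0017 with peaks within 1 kb of the start, Rps3 from 0.01 to -0.00035 and Rpl3l from 0.26 to -0.017 with peaks of 1 coding gene, Rps4x from 0.01 to -0.011 with the block and Rpl38 from -0.08 to 0.075 with any overlap. Without single libraries the ranges that crossed 0 were -0.030 to 0.051 for Rps3, -0.42 to 0.13 for Rps6, -0.11 to 0.097 for Rpl5, -0.054 to 0.095 for Rpl11, -0.28 to 0.18 for Rpl22, -0.24 to 0.19 for Rps4x, -0.24 to 0.12 for Rpl38, -0.23 to 0.0034 for Rpl39 and -0.16 to 0.090 for Rps27. Of those that kept their sign, Rps19 ran from 0.17 without Ctrl 2 to 0.42 without Ctrl 1, Rps27l from 0.016 without Ctrl 2 to 0.20 without Ctrl 1, Rplp0 from 0.050 without Ctrl 2 to 0.18 without Ctrl 1, Rpl3l from 0.043 without KO 2 to 0.48 without KO 1, Rpl10 from -0.27 without Ctrl 2 to -0.10 without Ctrl 1 and Rps27a from -0.24 without KO 2 to -0.053 without KO 1. The cause of these changes was not tested. The depth of KO 2 and Ctrl 2 limits low peaks, such as the single peak of Rps4x.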

Other observations

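In 4 ribosomal protein genes the RefSeq start lay far inside the gene as annotated in GENCODE, and a Pol II peak held it. The distance between both annotated starts was 3553 bp in Rps24, 2614 bp in Rpl18, 1947 bp in Rps2 and 1425 bp in Rps10. The peaks that held the RefSeq start had log2 fold changes, KO over Ctrl, of -0.23 ± 0.28 (SE) in Rps24, -0.18 ± 0.27 in Rpl18, -0.00090 ± 0.19 in Rps2 and 0.18 ± 0.28 in Rps10. All 4 were counted as inside peaks because the annotated gene start set the class. These genes were chosen after their distances were seen.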
